A study of Homo sapiens with 12 samples.

Results

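The Arp2/3 complex was followed at the transcript level through its 9 subunit genes, ACTR2, ACTR3, ARPC1A, ARPC1B, ARPC2, ARPC3, ARPC4, ARPC5 and ARPC5L, in human fibroblasts transfected with small interfering RNAs (siRNAs). The members were chosen by gene symbol, with earlier results of these data known, and none was left out for its values. All 9 were present among the 13937 genes of the expression table, and all 9 passed the filter on low values. The cells were WI-38 human embryonic lung fibroblasts, and each of the 6 groups had 2 libraries, 12 in all. Every library title names a pair of siRNA positions.

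In the control group the control siRNA filled both positions. In the YT group siRNAs to the coactivators YAP (gene YAP1) and TAZ (gene WWTR1) were combined with the control siRNA. In the cGAS group it was combined with siRNAs to cGAS, a sensor of DNA in the cytosol, and in the STING group with siRNAs to STING, the adaptor that cGAS signals through. In the cGAS_YT and STING_YT groups the YAP and TAZ siRNAs took the place of the control siRNA. All groups were therefore transfected cells of 1 line, and no untransfected cells were analysed here. Whether the libraries of a group are separate cultures is not stated in the labels. The p-values therefore speak only to the spread between the libraries, which may be technical.

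Arp2/3 is a stable assembly of subunits that binds the side of an existing actin filament and starts a new filament from it as a branch. ACTR2 and ACTR3 encode the actin-like subunits Arp2 and Arp3, on which the new filament grows, and ARPC2 and ARPC4 encode the core pair that holds the complex together on the mother filament. ARPC1 and ARPC5 are each made in a pair of alternative forms, ARPC1A or ARPC1B and ARPC5 or ARPC5L, and ARPC3 is the remaining subunit. The complex is inactive until nucleation-promoting factors of the WASP and WAVE families switch it on. In fibroblasts the branched networks it builds drive lamellipodia, and YAP and TAZ are themselves known to respond to the actin cytoskeleton.

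Library depth lay between 17790774 and 20650727 reads. Expression is given in CPM, reads of a gene relative to all reads of its library, scaled by the authors and taken from libraries that read only transcript 3′ ends, so that a transcript gives about 1 tag whatever its length. The correlation between libraries of a group, across genes, was lowest in the YT group (r = 0.987, with 249 genes more than 2-fold apart) and reached 0.995 in the STING group. The siRNA targets were lower in every group that received the matching siRNAs. YAP1 stood at 13.4% of its reference in YT, 24.8% in cGAS_YT and 16.2% in STING_YT, WWTR1 at 14.2%, 19.2% and 12%, the cGAS gene (listed as MB21D1) at 23.6% in the cGAS group and the STING gene (TMEM173) at 7.39% in the STING group. All 12 fibroblast markers checked were expressed, whereas the epithelial, endothelial and blood lists had 2 of 7, 1 of 5 and 2 of 7 genes in the table (TEK highest, at a mean of 76.8 CPM).

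Without YAP and TAZ siRNAs the fibroblasts carried most transcript for ARPC2, with 1105 and 1202 CPM in the control libraries. ACTR2 followed at 531 and 540.5 CPM, ARPC4 at 487 and 515 CPM, and ACTR3 at 382 and 406 CPM. Both ARPC2 libraries lay far above every other subunit, while the ACTR2 and ARPC4 values lay close together without overlap. ARPC3 stood at 250.3 and 252 CPM, ARPC1B at 214 and 225 CPM, and ARPC5 at 202 and 184 CPM. Lowest were the alternative forms ARPC5L, at 79.7 and 79.8 CPM, and ARPC1A, at 70.4 and 71.1 CPM. The Arp3 paralog ACTR3B was near the limit of the table at 2.13 and 2.78 CPM in the control libraries and lay between 0.888 and 2.78 CPM in all 12. How completely the 3′ end of each gene is captured was not tested, so the order between genes is that of 3′ tags. GENCODE names 2 pseudogenes after ACTR3 and 3 after ARPC3, none of them in the table, and reads shared with such copies could have been assigned either way.

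**Figure D1:**
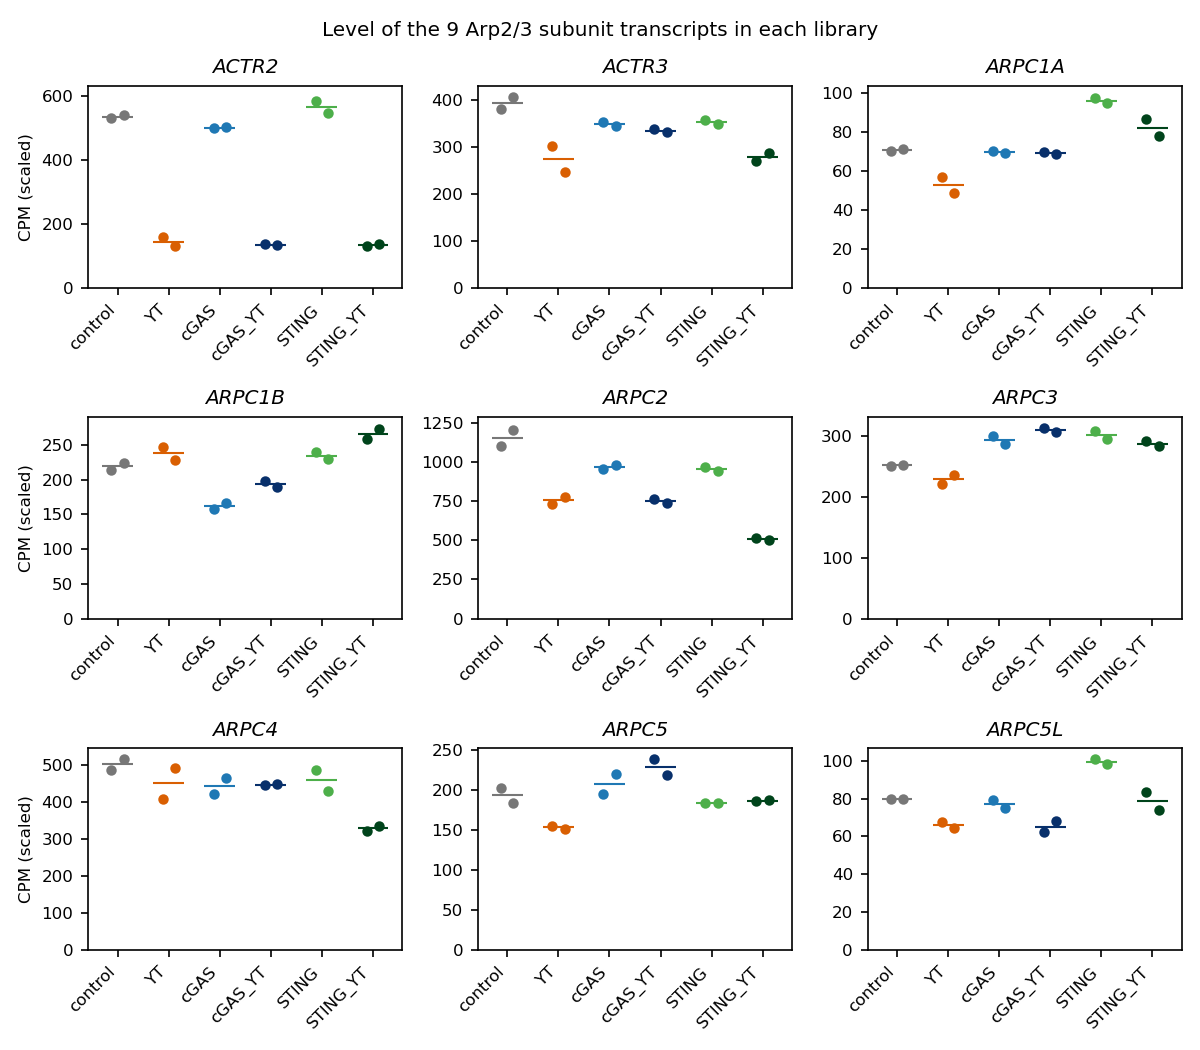
Level of each Arp2/3 subunit transcript in CPM (vertical axes, linear and starting at 0) in the 6 siRNA groups (horizontal axes). Points are the 2 libraries of a group and the short line is their mean. ACTR2 forms 2 separate bands, 499.6 to 585 CPM without and 130.1 to 158 CPM with YAP and TAZ siRNAs, a pattern that no other panel has to that extent.

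The comparison of YT with control, and its repeats against the cGAS and the STING background, asks how the transcriptome differs when YAP and TAZ are depleted. The 3 comparisons share no library. In all of them ACTR2 fell to 23.9 to 27.0% of its level and ARPC2 fell less. The other subunits fell by smaller amounts or did not pass the test, except that ARPC1B rose in the cGAS background. With the control siRNA as partner 6 of 9 subunits fell and none rose, beside 20.9% of all 13894 genes tested that fell and 20.6% that rose. With cGAS siRNAs 2 of 9 fell (12.7% of all genes fell) and 1 rose (15% rose), and with STING siRNAs 5 of 9 fell and none rose (19.8% and 19.1%). The median log2 change of the 9 subunits was -0.33, -0.01 and -0.34 in the 3 comparisons, and without ACTR2 -0.30, 0.00 and -0.28, where the median of all genes was 0.00, 0.03 and 0.03. All of these calls are from limma on log2(CPM + 1) with Benjamini-Hochberg adjustment over all genes at a threshold of 0.05. Since these are bulk libraries, less of a transcript per cell cannot be told apart from fewer cells that make it.

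ACTR2, at chr2:65227753-65271253 on the plus strand (GRCh38, GENCODE release 29), encodes Arp2. Its transcript stood at 158 and 130.1 CPM in the YT libraries, at 137 and 132 CPM in cGAS_YT and at 132 and 137 CPM in STING_YT, beside 531 and 540.5 CPM in control, 499.6 and 503 CPM in cGAS and 585 and 549 CPM in STING. The 6 libraries with YAP and TAZ siRNAs were all far below the 6 without them, and within each set the libraries lay close together. The log2 change was -1.90 ± 0.09 (SE; limma adjusted p = 1.1e-10) in YT against control, -1.89 ± 0.09 (adjusted p = 9.6e-10) in cGAS_YT against cGAS and -2.07 ± 0.09 (adjusted p = 1.5e-10) in STING_YT against STING. These correspond to 26.9%, 27.0% and 23.9% of the reference level. By p-value ACTR2 took place 30, 4 and 6 among the 13894 genes in the 3 comparisons. By size of the decrease it took place 178, 48 and 130, so a number of genes fell further.

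The start of ACTR2 is shown because it is the member with the largest decrease in all 3 comparisons. RefSeq (GRCh38.p14) places the window from 250 bases before to 50 bases after its start at chr2:65227581-65227880, plus strand. Capitals mark the GC box, GGGCGG, searched on both strands.

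ACTR2 promoter: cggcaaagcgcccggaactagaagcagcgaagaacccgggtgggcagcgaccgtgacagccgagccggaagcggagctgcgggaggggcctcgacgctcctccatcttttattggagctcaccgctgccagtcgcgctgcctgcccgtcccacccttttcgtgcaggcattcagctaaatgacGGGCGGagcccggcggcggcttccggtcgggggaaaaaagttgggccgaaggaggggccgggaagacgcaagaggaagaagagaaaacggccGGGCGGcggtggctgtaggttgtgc

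The window is 66.0% G and C, where the median window of all genes has 58.7%, and it holds 2 GC boxes. RefSeq windows were found for 8 of the 9 subunits, 11 windows in all. Each of these 8 genes had at least 1 window with a GC box, for ACTR3 2 of its 3 windows. Counted by window and not by gene, 45% of 35116 windows of the same length had a GC box. GGAATG, the core recognised by the TEAD factors through which YAP and TAZ act, searched on both strands, occurred in none of the 11 windows and in 14% of all windows. The AP-1 site TGANTCA was present only at ARPC5, against 7.71% of all windows. A missing match says only that these letters are not in these 300 bases.

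ACTR3, at chr2:113889960-113962596 (plus strand), encodes Arp3, which stands opposite Arp2 at the base of the branch. It was measured at 302 and 246 CPM in YT against 382 and 406 CPM in control, and at 271 and 287 CPM in STING_YT against 358 and 349 CPM in STING. Both pairs of groups were apart. In the cGAS background the values of 338 and 332 CPM with YAP and TAZ siRNAs lay just below the 354 and 345 CPM without them. ACTR3 fell by 0.53 on the log2 scale in YT against control (SE 0.09, limma adjusted p = 0.00019) and by 0.34 in STING_YT against STING (adjusted p = 0.0066). With cGAS siRNAs its change of -0.06 had a 95% interval of -0.25 to 0.13 (adjusted p = 0.68). The call with STING siRNAs was lost without STING replicate 13 (-0.32, adjusted p = 0.056) or STING_YT replicate 15 (-0.30, adjusted p = 0.07).

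ARPC2 and ARPC4 form the core of the complex. ARPC2 (chr2:218217094-218254356, plus strand) fell in all 3 comparisons and ARPC4 (chr3:9792495-9807726, plus strand) in 1. ARPC2 stood at 734 and 776 CPM in YT, 765 and 735 CPM in cGAS_YT and 512 and 499 CPM in STING_YT, against 1105 and 1202 CPM in control, 955 and 979.6 CPM in cGAS and 969 and 939.5 CPM in STING. The 6 libraries with YAP and TAZ siRNAs did not overlap the 6 without. Its log2 change was -0.61 ± 0.08 (SE; limma adjusted p = 1.3e-05), -0.37 ± 0.08 (adjusted p = 0.0025) and -0.92 ± 0.08 (adjusted p = 1.5e-07) in the control, cGAS and STING backgrounds. ARPC4 was measured at 321 and 335 CPM in STING_YT, below all 10 other libraries of the study, which ran from 407 to 515 CPM. It fell by 0.48 in that comparison (SE 0.10, adjusted p = 0.00091). In the other backgrounds its changes of -0.16 (95% interval -0.37 to 0.04) and 0.01 (-0.19 to 0.22) did not pass. ARPC4 overlaps TADA3 on the opposite strand, which is also in the table, and whether the authors counted by strand is not given in the sources used here.

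ARPC1 is the propeller-shaped subunit, and its alternative forms are neighbours on chromosome 7, with ARPC1A at 99325910-99366262 and ARPC1B at 99374249-99394816, both on the plus strand. They did not move alike. ARPC1A stood at 57.1 and 48.4 CPM in YT, below the control libraries (70.4 and 71.1 CPM), and fell by 0.42 (SE 0.09, limma adjusted p = 0.0018). In the cGAS background it was at 69.9 and 68.5 CPM with and 70.0 and 69.1 CPM without YAP and TAZ siRNAs, overlapping ranges with a change of -0.01 (95% interval -0.21 to 0.19). In the STING background its change of -0.23 (-0.43 to -0.03) had an adjusted p of 0.069. ARPC1B was above its reference group in each of the 3 means, at 247 and 228 CPM in YT, 197 and 189 CPM in cGAS_YT and 258 and 273 CPM in STING_YT. It rose by 0.26 in cGAS_YT against cGAS (SE 0.08, adjusted p = 0.022), while its changes of 0.12 (adjusted p = 0.25) and 0.18 (adjusted p = 0.082) in the control and STING backgrounds did not pass. The ARPC1B call was lost whichever of the 4 libraries compared was left out, cGAS replicate 7 (adjusted p = 0.16), cGAS replicate 8 (0.065), cGAS_YT replicate 9 (0.11) or cGAS_YT replicate 10 (0.056), and with a constant prior (0.078). ARPC1B overlaps PDAP1 on the opposite strand.

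ARPC3 (chr12:110434825-110450422, minus strand), which sits beside Arp3, did not pass in any of the 3 comparisons. Its changes of -0.14, 0.08 and -0.07 had 95% intervals of -0.29 to 0.02, -0.08 to 0.24 and -0.23 to 0.09. ARPC5 (chr1:183620846-183635757, minus strand) and ARPC5L (chr9:124862130-124877733, plus strand) are the alternative forms of the subunit that tethers Arp2 to the rest of the complex. ARPC5 was at 155 and 151 CPM in YT against 202 and 184 CPM in control and fell by 0.33 (SE 0.08, limma adjusted p = 0.0045). With cGAS or STING siRNAs its changes were 0.14 (-0.04 to 0.32) and 0.02 (-0.15 to 0.20). ARPC5L was lower with YAP and TAZ siRNAs in all 3 backgrounds, at 67.5 and 64.3 CPM in YT, 62.2 and 68.2 CPM in cGAS_YT and 83.7 and 74.2 CPM in STING_YT, against 79.7 and 79.8, 79.6 and 75.2, and 101 and 98.6 CPM, with no overlap within a background. It fell by 0.27 in YT against control (adjusted p = 0.023) and by 0.34 in STING_YT against STING (adjusted p = 0.007), and its -0.24 in the cGAS background missed the threshold (adjusted p = 0.053).

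Some of these smaller changes depended on single libraries or on the fit. The ARPC5 decrease in YT against control was lost without control replicate 1 (-0.26, limma adjusted p = 0.053) and in a fit of only the groups compared (0.056). That of ARPC5L was lost without control replicate 1 (adjusted p = 0.072), control replicate 2 (0.08) or YT replicate 4 (0.062) and with a constant prior (0.057) or only the groups compared (0.13), and in the STING background without STING replicate 13 (0.058) or STING_YT replicate 16 (0.11). The ACTR2 and ARPC2 decreases in all 3 comparisons, the ACTR3 and ARPC1A decreases in YT against control and the ARPC4 decrease in STING_YT against STING passed under every alternative run.

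**Figure D2:**
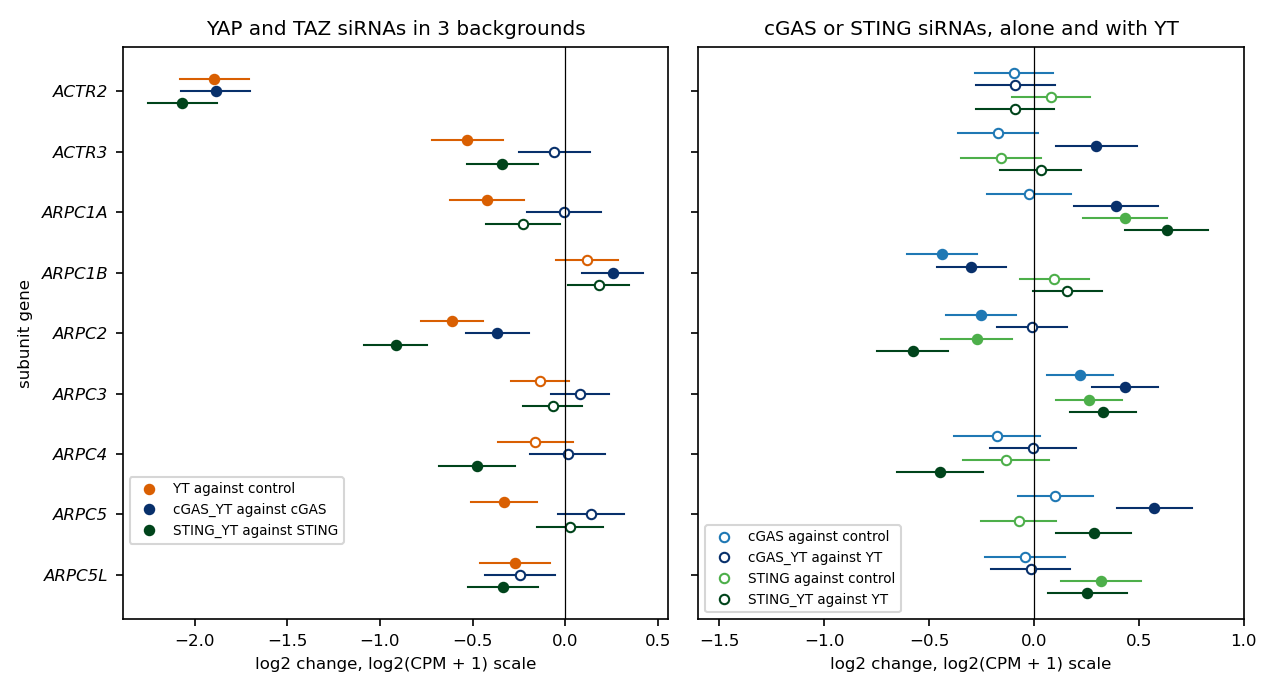
Log2 change of each subunit transcript on the log2(CPM + 1) scale (horizontal axes), with 95% intervals from limma. Left, YAP and TAZ siRNAs in 3 backgrounds; right, cGAS or STING siRNAs without and with YAP and TAZ siRNAs. Filled points passed an adjusted p of 0.05. ACTR2 lies near -2 in all 3 left-hand comparisons and at about 0 in the right-hand ones.

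Whether the YAP and TAZ effect on a subunit differed between backgrounds was tested as an interaction over all 13894 genes. For ACTR2 the effect with cGAS siRNAs differed from that with the control siRNA by 0.01 (95% interval -0.26 to 0.27), and with STING siRNAs by -0.17 (-0.44 to 0.09). For 3 other subunits the difference passed in the cGAS background, all in the positive direction, beside 7.50% of all genes positive and 5.93% negative. ACTR3 differed by 0.47 ± 0.13 (SE; limma adjusted p = 0.021), ARPC5 by 0.47 ± 0.12 (adjusted p = 0.013) and ARPC1A by 0.42 ± 0.13 (adjusted p = 0.049). Each of them fell in YT against control and did not pass in cGAS_YT against cGAS, where the changes were -0.06, 0.14 and -0.01. In the STING background 0 of 9 subunits passed by limma or edgeR and 1, ARPC2, by DESeq2 (by limma 3.35% of all genes were positive and 4.53% negative). The smallest limma p-values among the subunits there were those of ARPC5 (0.36, adjusted p = 0.079), ARPC2 (-0.31, adjusted p = 0.12) and ARPC4 (-0.31, adjusted p = 0.19). More subunits passed in the STING background without YT replicate 3, in both directions, but the share of all genes in that setting was not worked out.

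The interaction calls were fragile. ARPC1A lost its call in 13 of 17 alternatives, both count tests included (edgeR adjusted p = 0.058, DESeq2 adjusted p = 0.08), and when control replicate 1 or 2, YT replicate 4 (0.30), cGAS replicate 7 or 8 or cGAS_YT replicate 9 or 10 was left out, with adjusted p from 0.092 to 0.14. ACTR3 lost it with a constant prior (adjusted p = 0.097), with only the groups compared (0.062) and without control replicate 2, cGAS replicate 7 or 8 or cGAS_YT replicate 9 or 10 (0.43 to 0.49, adjusted p from 0.05 to 0.088), and ARPC5 with a constant prior (0.07) and without control replicate 1, cGAS replicate 7 or cGAS_YT replicate 9 (0.39 to 0.41, adjusted p from 0.058 to 0.094). The targeted gene YAP1 itself was less reduced in the cGAS background, with an interaction of 0.86 (adjusted p = 0.0052), and the 2 YT libraries were the least alike of any group. The part of either in the interactions was not tested.

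Since each complex takes 1 subunit per place, the alternative forms were summed to give 7 places. In all 6 libraries without YAP and TAZ siRNAs the ACTR2 place was exceeded only by ARPC2. In all 6 libraries with them it was the lowest of the 7, at 130.1 to 158 CPM, and the next lowest place never went below 215 CPM. Transcripts summed over the 7 places came to 3398 ± 109 CPM (SD, n = 2) in control and 2360 ± 16.6 CPM in YT. The sums were 3069 ± 54.2 and 2531 ± 48.7 CPM in cGAS and cGAS_YT, and 3246 ± 114 and 2146 ± 7.60 CPM in STING and STING_YT. The sums with YAP and TAZ siRNAs were lower in all 3 backgrounds, with no overlap, and ACTR2 and ARPC2 accounted for most of the difference in each. Nothing here measures protein or assembled complex.

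**Figure D3:**
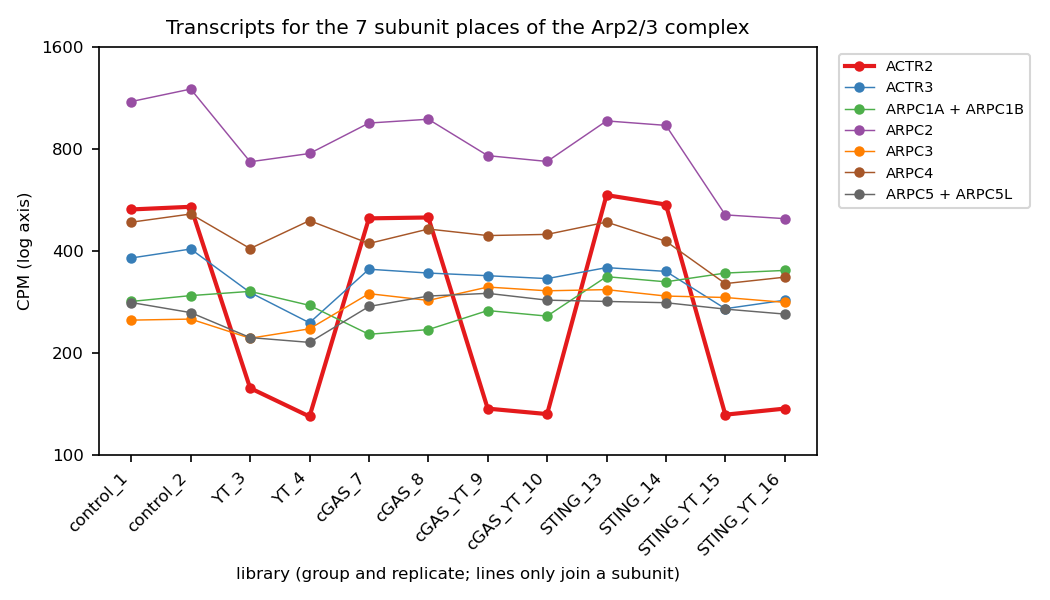
CPM (log axis) for the 7 subunit places of the complex in each of the 12 libraries, with ARPC1A and ARPC1B, and ARPC5 and ARPC5L, summed. Lines only join values of a place. The ACTR2 line ranks next after ARPC2, at a distance, in the 6 libraries without YAP and TAZ siRNAs and is the lowest in the 6 with them. The ARPC1 sum also changes its rank, from lowest in cGAS to next after ARPC2 in STING_YT.

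The alternative forms can be compared within a library as shares, which do not depend on how the library was scaled. ARPC1B made up 75.6% of the ARPC1 transcripts in control and 81.9% in YT, 69.9% in cGAS and 73.6% in cGAS_YT, and 70.9% in STING and 76.4% in STING_YT. All libraries with YAP and TAZ siRNAs were above those without in the same background. The mean difference was 5.15 percentage points (exact permutation test within the 3 backgrounds, two-sided p = 0.00926, the smallest it can give, and 0.0139 after Benjamini-Hochberg over 3 shares). By background it was 6.29, 3.71 and 5.44 points. The rise came from lower ARPC1A in YT, from higher ARPC1B in cGAS_YT, and from both means moving apart in STING_YT.

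ARPC5L made up 29.3% and 30.1% of the ARPC5 transcripts in control and YT, 27.2% and 22.3% in cGAS and cGAS_YT, and 35.3% and 29.7% in STING and STING_YT. The differences of 0.84, -4.99 and -5.52 points did not share a sign. Their mean of -3.22 points did not pass (exact permutation test, two-sided p = 0.0556). Of the transcripts for the actin-like pair, ACTR2 made up 57.6%, 58.9% and 61.6% in control, cGAS and STING, and 34.5%, 28.7% and 32.6% in YT, cGAS_YT and STING_YT. The mean difference of -27.5 points had the smallest p the permutation allows (exact two-sided p = 0.00926, adjusted 0.0139), with -23.2, -30.3 and -29.1 points by background. In the finished complex Arp2 and Arp3 are present in equal number.

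**Figure D4:**
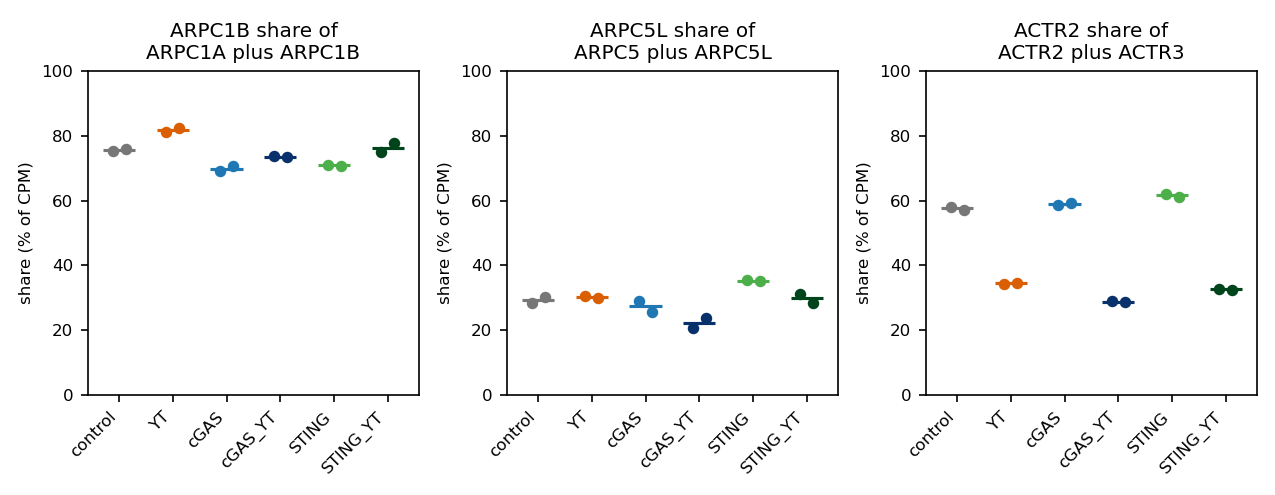
Share of the named gene in the summed CPM of the pair, in percent (vertical axes, 0 to 100), for the 6 siRNA groups. Points are libraries and lines their means. The ACTR2 share drops from 57.6 to 61.6% down to 28.7 to 34.5% with YAP and TAZ siRNAs, and the ARPC1B share is 3.71 to 6.29 points higher.

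The comparisons of cGAS and of STING with control ask what either set of siRNAs did alone. Both comparisons use the same control libraries and are therefore not independent. With cGAS siRNAs 2 of 9 subunits fell, beside 14.3% of all genes, and 1 rose, beside 11.1%. With STING siRNAs 3 of 9 rose (6.14% of all genes) and 1 fell (8.86%). ACTR2 did not pass in either, with changes of -0.10 (95% interval -0.28 to 0.09) and 0.08 (-0.11 to 0.27).

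ARPC1B was lowest in the cGAS group, at 157 and 166 CPM against 214 and 225 CPM in control, and fell by 0.44 (SE 0.08, limma adjusted p = 0.00057). ARPC1A was highest in the STING group, at 97.2 and 94.9 CPM against 70.4 and 71.1 CPM in control, and rose by 0.44 (SE 0.09, adjusted p = 0.0051). In the ARPC1 pair, then, the cGAS siRNAs went with less of the B form and the STING siRNAs with more of the A form. ARPC5L rose with STING siRNAs by 0.32 (adjusted p = 0.024). ARPC2 fell by 0.25 and 0.27 with cGAS and STING siRNAs (adjusted p = 0.027 and 0.029), and ARPC3 rose by 0.22 and 0.26 (adjusted p = 0.038 and 0.025).

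The ARPC1B decrease held whichever library was left out, and the ARPC1A increase was lost only without STING replicate 13 (0.42, adjusted p = 0.056). The ARPC2, ARPC3 and ARPC5L calls were lost without several of the libraries. For ARPC2 these were control replicate 2 and both cGAS libraries (adjusted p from 0.1 to 0.18), or control replicate 2 and both STING libraries (0.11 to 0.18). For ARPC3 they were either control or either cGAS library (0.095 to 0.23), or either control or either STING library (0.081 to 0.19), and for ARPC5L either control or either STING library (0.088 to 0.15). All of these ARPC2, ARPC3 and ARPC5L calls were also lost with a constant prior.

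Set directly against each other, without the control libraries, the cGAS group was lower than the STING group in ARPC1B (-0.54 ± 0.08 SE, limma adjusted p = 6.5e-05), ARPC1A (-0.46 ± 0.09, adjusted p = 0.0013) and ARPC5L (-0.36 ± 0.09, adjusted p = 0.005). These were 3 of 9 lower and none higher, beside 17.6% of all genes lower and 16% higher. ACTR2 was at 499.6 and 503 CPM in cGAS and 585 and 549 CPM in STING, and its difference of -0.18 (95% interval -0.36 to 0.01) did not pass. The ARPC5L difference was lost without cGAS replicate 8 (-0.32, adjusted p = 0.057). ACTR3, ARPC2, ARPC3, ARPC4 and ARPC5 did not pass either.

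In cells that also had YAP and TAZ siRNAs, more subunits differed, and so did a larger share of all genes. In cGAS_YT against YT 4 of 9 rose and 1 fell, beside 20.5% and 20.2% of all genes. ARPC5 rose by 0.57 (SE 0.08, limma adjusted p = 4.4e-05), from 155 and 151 to 238 and 219 CPM. ARPC3 rose by 0.44 (SE 0.07, adjusted p = 0.00019), from 221 and 236 to 313 and 306 CPM. In both, the ranges did not overlap. ARPC1A rose by 0.39 (adjusted p = 0.0033) and ACTR3 by 0.30 (adjusted p = 0.015), and ARPC1B fell by 0.30 (adjusted p = 0.0058). The ACTR3 increase was lost without YT replicate 4 (0.15, adjusted p = 0.15) or cGAS_YT replicate 9 (0.28, adjusted p = 0.071), and in a fit of only the groups compared ACTR3, ARPC1A and ARPC1B did not pass (limma adjusted p = 0.11, 0.051 and 0.076).

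In STING_YT against YT 4 of 9 rose and 2 fell, beside 16% and 18% of all genes. The core pair fell together, ARPC2 by 0.58 (SE 0.08, limma adjusted p = 3.3e-05) and ARPC4 by 0.45 (SE 0.10, adjusted p = 0.0019). ARPC1A rose by 0.63 (SE 0.09, adjusted p = 7.4e-05), ARPC3 by 0.33 (adjusted p = 0.0027), ARPC5 by 0.28 (adjusted p = 0.015) and ARPC5L by 0.26 (adjusted p = 0.037). ACTR2 did not pass in either comparison, at -0.09 in both (95% intervals -0.27 to 0.10 and -0.28 to 0.10). The ARPC5 increase was lost without either STING_YT library (adjusted p = 0.078 and 0.076), and that of ARPC5L without YT replicate 4 (adjusted p = 0.092) or STING_YT replicate 15 (0.17, adjusted p = 0.3). Both were also lost with a constant prior (adjusted p = 0.06 and 0.08) and with only the groups compared (0.06 and 0.14), and ARPC5L by DESeq2 (adjusted p = 0.053). Without YT replicate 4 the ACTR2 values became -0.23 in both comparisons (adjusted p = 0.029 and 0.031), and without YT replicate 3 they were 0.05 in both.

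The genes around the complex were taken from 5 lists of 98 genes, of which 93 were in the table. In YT against control the activators, which include the WASP and WAVE proteins, the WASH complex and their adaptors, had 7 of 30 genes higher and 4 lower (median -0.10), beside 20.6% of all genes higher and 20.9% lower. NCK2, an adaptor that recruits N-WASP, went from 24.3 and 29.4 to 45.9 and 39.8 CPM and rose by 0.66 (SE 0.13, limma adjusted p = 0.00052). The WASH complex genes FAM21C and FAM21A rose by 0.57 (adjusted p = 0.00097) and 0.58 (adjusted p = 0.0014), although they are close copies whose reads may be split between them. In the cGAS and STING backgrounds 6 activators rose and 4 fell in each, where 15% and 19.1% of all genes rose and 12.7% and 19.8% fell. With cGAS siRNAs alone 7 activators fell and 3 rose, beside 14.3% and 11.1% of all genes. NCK2 changed there by -1.01, to 12.1 and 13.5 CPM. With STING siRNAs alone 4 rose and 1 fell, beside 6.14% and 8.86% of all genes. WASF3, a WAVE protein, rose there by 1.05 (limma adjusted p = 2e-05), and KIAA1033, another WASH gene, fell by 1.17 (limma adjusted p = 2.7e-06).

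Among 14 inhibitors, debranching factors and tropomyosins, which compete with branching, 6 fell and 1 rose in YT against control (median -0.24), beside 20.9% and 20.6% of all genes. CORO1C, a coronin that removes branches, stood at 52.5 and 53.8 CPM in YT against 187 and 218 CPM in control and fell by 1.91 (limma adjusted p = 2.4e-10), about the size of the ACTR2 decrease. It fell in the cGAS background by 1.01 (adjusted p = 9.4e-07) and in the STING background by 1.79 (adjusted p = 6.2e-10), and its cGAS interaction of 0.89 passed (adjusted p = 0.00023). TPM1, a tropomyosin, fell by 1.16 (adjusted p = 1.5e-08). The list had 0 higher and 3 lower in the cGAS background (15% and 12.7% of all genes), and 3 higher and 6 lower in the STING background (19.1% and 19.8%).

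The formins and other nucleators, which start unbranched filaments, had 5 of 17 higher and 6 lower in YT against control (median -0.24), beside 20.6% and 20.9% of all genes. DIAPH3 went from 51.9 and 44.6 to 7.45 and 9.52 CPM and fell by 2.38 (limma adjusted p = 3.4e-09). DAAM1 rose by 0.88 (limma adjusted p = 3.9e-05) and DIAPH2 by 0.77 (limma adjusted p = 2.4e-05). LMOD1 went from 69.1 and 72.6 to 29.6 and 38.4 CPM. With a library left out, its change was -1.23 to -0.87 in YT against control. The LMOD1 ranges were 0.59 to 0.68 in the cGAS background and -0.13 to 0.15 in the STING background. In the cGAS background DIAPH3 was at 39.0 and 29.8 CPM against 39.9 and 41.7 CPM, did not pass (-0.25, adjusted p = 0.24), and had an interaction of 2.13 (adjusted p = 4.9e-06). There 5 of 17 rose and 3 fell (15% and 12.7% of all genes), and in the STING background 2 rose and 4 fell (19.1% and 19.8%).

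Actin and the proteins that bind its monomers and ends had 14 of 25 genes lower and 1 higher in YT against control (median -0.43), beside 20.9% and 20.6% of all genes. CAP2, which recycles actin monomers, fell by 1.24 (limma adjusted p = 4.5e-08), CFL2, the muscle-type cofilin, by 0.81 (adjusted p = 1.3e-05) and VASP, which elongates filaments, by 0.70 (adjusted p = 3.5e-06). CFL2 changed by -0.99 and -1.28 in the cGAS and STING backgrounds, and by -1.17 with cGAS siRNAs alone. With a library left out, the CAP2 ranges there were -0.06 to 0.13 and -0.75 to -0.56. Those of VASP were -0.29 to -0.25 and -0.25 to -0.19. The cGAS interaction of CAP2 was 1.27. The WDR1 ranges were -0.69 to -0.54 in YT against control, 0.19 to 0.23 in the cGAS background and -0.27 to -0.22 in the STING background. In the STING background 11 of 25 fell and 2 rose (median -0.21; all genes 19.8% and 19.1%), and in the cGAS background 5 fell and 3 rose (median 0.08; all genes 12.7% and 15%). Of the 7 actin-related proteins outside the complex, which belong to dynactin or to chromatin remodelers, 2 rose and 2 fell in YT against control, 1 fell in the cGAS and 2 fell in the STING background. The largest decrease among them was 0.43, for ACTR1B of dynactin (adjusted p = 0.0066, and -0.28 with adjusted p = 0.11 without control replicate 2).

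**Figure D5:**
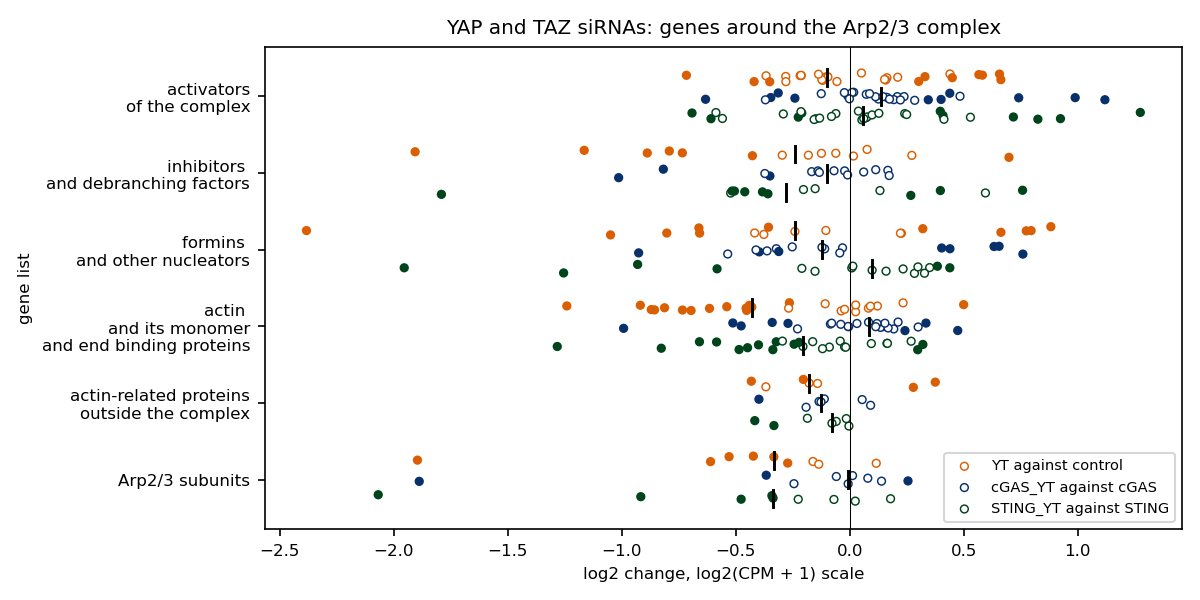
Log2 change with YAP and TAZ siRNAs on the log2(CPM + 1) scale (horizontal axis) for the genes of 5 lists around the complex and for its 9 subunits. Each point is a gene, filled where limma's adjusted p was below 0.05, colours give the background and black ticks the medians. ACTR2, CORO1C and DIAPH3 are the points near or below -1.9 in YT against control.

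For each subunit the 3 genes most like it were found by Pearson correlation of log2(CPM + 1) over the 12 libraries, among the 10251 genes that averaged 5 CPM or more. The libraries share depth and treatment, so r is a description. For ACTR2 these were EAF1 (r = 0.992), MPC2 (r = 0.992) and FGF5 (r = 0.986), which changed by -1.31, -2.33 and -1.91 in YT against control. For ACTR3 they were DERA (r = 0.956), NDUFB6 and NRAS, for ARPC2 MICU2 (r = 0.979), EPN2 and CDC25A, and for ARPC1B MIER1 (r = 0.981), KLHDC3 and PHLDA3. For ARPC1A the highest was KIAA0513 (r = 0.978), for ARPC3 HMGN5 (r = 0.960), for ARPC4 HBS1L (r = 0.953), for ARPC5 MASP1 (r = 0.957) and for ARPC5L ARPP19 (r = 0.967). No subunit was among the 3 genes most like another, and the closest pair of subunits was ARPC2 and ARPC4 (r = 0.869).

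EAF1 and MPC2 also hold a short sequence that is found in ACTR2. The 7 letters GGAACTT, picked because earlier results of these data had pointed to them, occur once in the 3′ UTR of ACTR2 (in 2 of its 3 coding transcripts) and also in the coding sequence of WWTR1, a target of the siRNAs. EAF1 has 2 such sites, of which the first is given. The windows are shown to compare what surrounds the letters, which are in capitals (GENCODE release 29 on GRCh38, transcript strand).

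ACTR2 chr2:65269364-65269393 plus strand, exon 9 of 9: aactggagtacgtagaGGAACTTtatttac

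EAF1 chr3:15440782-15440811 plus strand, exon 6 of 6: gatttaatggcaggtaGGAACTTatttata

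MPC2 chr1:167918126-167918155 minus strand, exon 5 of 5: tctctacatgacttaaGGAACTTatctatg

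WWTR1 chr3:149520881-149520910 minus strand, coding, exon 8 of 8: aacaaacgttgacttaGGAACTTtggaatc

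The longest run of letters shared with the WWTR1 window was 9 bases for ACTR2, 9 for this EAF1 site and 8 for MPC2. Only the longest 3′ UTR of each gene was searched. Among the subunits the 7 letters also occur in the 3′ UTRs of ACTR3 (2 sites) and ARPC4 (1 site), and not in those of the other 6. Each ACTR3 site and the ARPC4 site was in 1 of the 3 coding transcripts of its gene. FGF5, the third gene most like ACTR2, has none. Of 11650 genes with a 3′ UTR of at least 50 bases, 12% hold the letters. Their median change was -0.08, against 0.01 for genes without, in YT against control, -0.06 against 0.05 in the cGAS background and -0.10 against 0.02 in the STING background. Of the genes with the letters 30.4%, 24.4% and 31.9% fell in the 3 comparisons, and of those without 21.9%, 12.8% and 20.5%. With cGAS or STING siRNAs alone the medians were -0.02 with and -0.02 without, and 0.01 with and 0.01 without. The shares that fell there were 16.8% with and 15.7% without, and 10.98% with and 9.59% without. Because earlier results of these data had pointed to the letters, these medians and shares are a description and not a separate test. Genes with and without them were not matched for 3′ UTR length, and no other 7-letter sequence was compared. In YT against control 26 of the genes with the letters fell further than ACTR2. Of all 13894 genes tested, with or without a searched 3′ UTR, 178 fell at least as far there, ACTR2 included. In the cGAS background these counts were 7 and 48, and in the STING background 16 and 130. No siRNA sequence is given in the sources used here, and the part of these letters in the ACTR2 decrease was not tested.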

How the data were processed

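Libraries were prepared with a kit that reads messenger RNA 3′ ends, per the labels' protocols. STAR 2.5.3a, featureCounts, edgeR and hg38 are named in the submitters' processing notes. Their settings, the use of strand and the gene annotation were not given in the sources used here. Deposited was a table with a signal value per gene and library, by its layout and sums CPM scaled by the authors. Each deposited signal value was a multiple of 1 read's worth (100% of values, tolerance 0.01 reads), so whole reads could be recovered. A value of 0 allows up to 3 reads, 0.142 to 0.170 CPM, for counting error only.

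The design, laid out for plain CPM, was used unchanged. A single fit of log2(CPM + 1) over all 12 libraries was made with limma 3.58.1 in R 4.3.3 (eBayes with trend, 6 residual and 10.1 prior degrees of freedom). The 13894 genes that reached 1 CPM in 2 or more libraries entered it, over 10 comparisons, with Benjamini-Hochberg adjustment within each and a threshold of 0.05. Log2 fold changes understate changes of low genes. Intervals are at 95%. Shares were compared by exact permutation within backgrounds. The script was tested on simulated data.

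Named genes were all 9 members, the siRNA targets, ACTR3B, list genes with the smallest p (4 per list in YT against control, 2 in cGAS and STING against control and in each interaction) and the 3 genes most like each member. The members, lists and 7 letters were chosen with earlier results of these data known. The alternatives tried were a pseudocount of 0.25 or 4, a minimum of 5 CPM or none, median-of-ratios scaling, an eBayes prior without trend, fits restricted to the groups compared, leaving out single libraries, and, on the recovered reads, edgeR 4.0.16 (quasi-likelihood) and DESeq2 1.42.0. For list genes these alternatives were added after seeing the data.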

Additional observations from a re-analysis of the deposited data

Results flagged for a closer look

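The effect of the YAP and TAZ siRNAs differed between the control and the cGAS background for 3 of the 9 subunits by limma's interaction test. All 3 differences were positive, beside 7.50% of all genes positive and 5.93% negative. The difference was 0.47 for ACTR3, 0.42 for ARPC1A and 0.47 for ARPC5 on the log2 scale. ARPC1A lost its call in 13 of 17 alternatives, ACTR3 in 7 and ARPC5 in 4. Between the control and the STING background the limma test passed for no subunit, and DESeq2 called 1, ARPC2. By limma 3.35% of all genes were positive there and 4.53% negative.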

How the results depend on the processing

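Of 38 subunit results that passed, 18 passed under all alternatives run and none changed sign. By setting, 13 were lost with a constant prior, 9 with only the groups compared, 18 with at least 1 left-out library, 2 with DESeq2 and 1 each with edgeR, a pseudocount of 0.25 and rescaling; the cause was not tested, beyond fewer libraries where some were left out. The share of all genes that passed was not worked out with a constant prior, with only the groups compared or with a library left out. Counts of subunits in these settings therefore cannot be set beside all genes. Counts of subunits that passed moved with a constant prior to 1 in cGAS against control, 1 in STING against control and 0 in the cGAS interaction. With DESeq2 the count was 1 in the STING interaction, where 493 of all genes were positive and 723 negative. With only the groups compared the counts were 2 in cGAS_YT against YT, 5 in cGAS against STING and 1 in the cGAS interaction. With a library left out they ranged from 3 to 5 in STING_YT against STING, 1 to 2 in cGAS against control, 0 to 2 in STING against control, 0 to 3 in the cGAS interaction and 0 to 4 in the STING interaction. Without the STING or the cGAS background the ARPC1B share differed by 5.0 and 5.87 points and the ACTR2 share by -26.7 and -26.1 points, each with p = 0.0556, the smallest that the remaining backgrounds allow in the exact permutation test. The ARPC5L share ranged from -3.80 to -2.64 points with a library left out. Signs turned only in values near 0. Rescaling and DESeq2 gave -0.0077 and -0.0092 for ARPC4 in cGAS_YT against cGAS and -0.0197 and -0.0257 for ACTR2 in the cGAS interaction, and rescaling -0.00047 for LMOD1 in STING_YT against STING. With a library left out, cGAS_YT against cGAS ranged from -0.0209 to 0.0071 for ARPC1A, -0.058 to 0.083 for ARPC4, -0.17 to 0.13 for ARPIN and -0.063 to 0.13 for CAP2, and STING_YT against STING from -0.13 to 0.15 for LMOD1 and -0.080 to 0.073 for ACTR6. ACTR2 ranged from -0.23 to 0.050 in cGAS_YT against YT, from -0.23 to 0.047 in STING_YT against YT, and from -0.13 to 0.15 in the cGAS interaction. ARPC5L ranged from -0.037 to 0.092 in the cGAS and -0.15 to 0.021 in the STING interaction. Depth limited the low paralog ACTR3B, at 0.888 to 2.78 CPM, more than the subunits. Rescaling moved the median of all genes by at most 0.025. Of 74 results of named list genes that passed, 50 passed under all alternatives and none changed sign. No paired analysis was made. The numbers in the library titles run on across the groups and do not show whether libraries of different groups belong together. Where 1 library of a group remained, its spread was taken to be that of the other groups.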
